A study of Mus musculus with 9 samples.

Results

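Conventional type 2 dendritic cells (cDC2) from mouse bone marrow cultures labelled as lacking A20 were set against cDC2 from untreated wild-type cultures. The comparison holds 6 of the 9 libraries of the series, the 3 titled cDC2_A20iKO and the 3 titled cDC2_WT, and was made over all genes, of which 13251 of 40879 gene symbols had enough counts to be tested. Groups and replicate numbers came from the titles. Bone marrow cells of both groups were grown for 9 days with 100 ng/ml recombinant human Flt3L, a cytokine that drives dendritic cell formation, and the design text states that cDC2 were isolated by flow cytometry and that each group derived from 3 mice. The A20iKO genotype is given as A20fl/fl x CD11ccre, a floxed A20 gene with a Cre recombinase driven by the CD11c promoter, and the WT genotype only as WT. CD11c is carried by dendritic cells and by some other myeloid cells, so the label ties the deletion to the promoter and not to cDC2 alone. The other 3 libraries, here IFNa, are WT cultures given interferon alpha, and were used as a second reference. The treatment protocol text, the same for every library, gives IFNa on day 5, whereas titles and the separate treatment entry give it for the IFNa group alone. Not given in the sources used here are strain, age, sex, the sort gate, the exons deleted, whether WT mice carried Cre or the floxed gene, and whether a library holds cells of 1 mouse, so the tests below measure the spread between libraries.

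A20, encoded by Tnfaip3, is a ubiquitin-editing protein that restrains signalling from TNF receptors, Toll-like receptors and related receptors to the transcription factor NF-kB. It works with partner proteins of the TNIP family, and both Tnfaip3 and the inhibitor gene Nfkbia are themselves NF-kB targets, which closes a negative feedback loop. Dendritic cells exist in resting and mature states, and maturation brings NF-kB activity, chemokines, co-stimulatory molecules and the lymph node homing receptor Ccr7. cDC1 cross-present antigen to CD8 T cells and depend on Irf8, Batf3 and Id2, whereas cDC2 present mainly to CD4 T cells and rely on Irf4, Notch2 and Klf4.

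Total counts were 10552756, 6900598 and 9379681 in WT replicates 1 to 3 and 7187359, 8839523 and 9518822 in A20iKO replicates 1 to 3. All levels are CPM, counts relative to the library total scaled by edgeR's TMM factors. Reads mark transcript 3' ends, so that CPM does not depend on transcript length. All 35 listed cDC2 markers passed the filter on low counts, as did 26 of 30 cDC1, 22 of 24 plasmacytoid dendritic cell and 35 of 40 monocyte and macrophage markers, so detection alone does not show which cells the libraries hold. The cDC2 markers summed to 5950 to 7400 CPM in WT and 6730 to 7590 in A20iKO, and Itgax, the gene for CD11c, stood at 110, 75.4 and 90.1 CPM in WT and 90.4, 159 and 149 in A20iKO. The noncoding Gm26917 took 5.21 to 11.4% of counts in WT and 12.3 to 13.8% in A20iKO (exact permutation p = 0.1, 2-sided, the smallest that 3 against 3 allows). Stromal transcripts stood apart in WT replicate 2 and A20iKO replicate 1, at 0.558% and 0.555% of counts against 0.0913 to 0.186% in the other 4 libraries. Every library held both Xist and Y-linked counts. In bulk RNA, fewer cells of a type and less RNA per cell cannot be told apart.

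Among the 13251 genes tested, 765 were higher in A20iKO than WT (5.77%) and 651 were lower (4.91%), at an edgeR Benjamini-Hochberg adjusted p under 0.05. The fitted change was at least 4-fold for 328 of the genes that rose and for 98 of those that fell. The libraries of the 2 groups did not overlap in 28% of all genes tested (15.4% higher and 12.6% lower in A20iKO), and in 1411 of the 1416 called. The median log2 fold change over all genes was -0.01. The counts of list members given below are to be read beside this median and the shares of 5.77% higher and 4.91% lower. There were 42 genes that rose from no count in WT and 5 that fell to no count in A20iKO. Leaving out A20iKO replicate 2 or 3 brought the number that rose to 480 or 478.

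**Figure D1:**
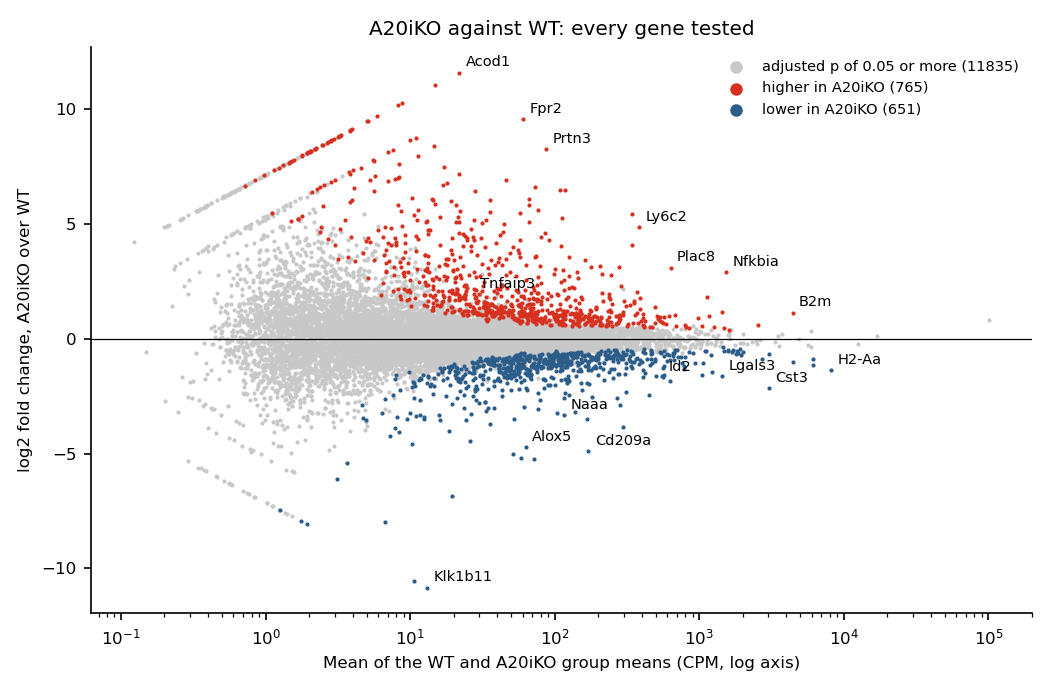
Each point is 1 of the 13251 genes tested, placed by the mean of the WT and A20iKO group means (CPM, log axis) and by the fitted log2 fold change of A20iKO over WT. Red points (765) rose, blue points (651) fell and grey points (11835) did not pass; the diagonal streaks at the left are genes with no or few counts in 1 group, whose fitted change depends on the prior count.

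The library label was read first on Tnfaip3 itself. Its level was 22.8, 6.82 and 4.27 CPM in WT replicates 1 to 3 and 37.5, 54 and 39.7 in A20iKO, from 42 to 232 counts in WT and 285 to 476 in A20iKO. All A20iKO libraries were above all WT libraries, and the transcript was higher in A20iKO (log2 fold change 1.95, SE 0.52, edgeR Benjamini-Hochberg adjusted p = 0.028). A 3' tag outside the deleted exons checks nothing about the deletion. The call on Tnfaip3 was lost without WT replicate 2 or 3 or A20iKO replicate 2 or 3 (edgeR Benjamini-Hochberg adjusted p = 0.0718, 0.0776, 0.113 and 0.0645), in the fit of the 6 libraries alone (0.0614) and without both libraries of most stromal transcripts (0.0913).

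Few partners and relatives of A20 passed the test. Of 17 genes for A20, its partners and linear ubiquitin editing, all tested, 3 rose and 1 fell, at a median log2 fold change of 0.03. Those that rose were Tnip1, Otud7b and Tnfaip3 itself. The shares were 17.6% higher and 5.88% lower, against 5.77% and 4.91% of all genes tested. Tnip1, whose protein ABIN1 tethers A20 to ubiquitin chains, stood at 59, 35.7 and 38.4 CPM in WT and 133, 194 and 176 in A20iKO (log2 fold change 1.92, SE 0.24, edgeR Benjamini-Hochberg adjusted p = 0.000179). Its relative Tnip3 had 52.6, 36.5 and 28.2 CPM in WT and 57, 75.1 and 56.2 in A20iKO; these groups did not overlap, but the difference did not pass (edgeR Benjamini-Hochberg adjusted p = 0.224). Rnf31, the catalytic subunit of the linear ubiquitin ligase, and the deubiquitinase gene Cyld did not pass.

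The NF-kB system changed at some of its inhibitors and at the non-canonical subunits. Of 11 subunit and IkB genes, all tested, 5 rose and none fell (median log2 fold change 0.88). Those that rose were Nfkbia, Relb, Bcl3, Nfkb2 and Nfkbib. The IkB genes Nfkbiz, Nfkbie and Nfkbid did not pass. Nfkbia, which encodes IkB-alpha, stood at 376, 392 and 332 CPM in WT and 2429, 2989 and 2673 in A20iKO (log2 fold change 2.88, SE 0.13, edgeR Benjamini-Hochberg adjusted p = 6.88e-08). The lowest A20iKO library thus lay far above the highest WT library. Relb, the partner of the p52 subunit, had 54.2, 34.1 and 24.6 CPM in WT and 316, 329 and 320 in A20iKO, and Nfkb2, the p52 precursor gene, 56.9, 60.6 and 53.5 against 146, 171 and 165. Bcl3, an atypical IkB protein that acts in the nucleus, had 41.3, 41.5 and 46.7 CPM in WT and 140, 208 and 217 in A20iKO (log2 fold change 2.12, SE 0.21, edgeR Benjamini-Hochberg adjusted p = 2.77e-05). The canonical subunit genes behaved otherwise: Rela (log2 fold change -0.16), Rel (-0.43) and Nfkb1 (-0.11) did not pass, with edgeR Benjamini-Hochberg adjusted p-values of 0.7, 0.193 and 0.846.

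Between receptors and NF-kB, 4 of 31 kinase and adaptor genes rose and 2 fell (median 0.03). The share that rose was 12.9%, against 5.77% of all genes tested. The share that fell, 6.45%, was near the 4.91% of all genes tested. Traf1, an adaptor of TNF receptors and a known NF-kB target, had 12, 11.5 and 13.6 CPM in WT and 134, 105 and 107 in A20iKO (log2 fold change 3.22, SE 0.24, edgeR Benjamini-Hochberg adjusted p = 2.66e-06). Birc2, which encodes the ubiquitin ligase cIAP1, rose from 59.6, 51.5 and 46.3 to 144, 119 and 108 CPM. The groups did not overlap for either gene, as the rule that picked both genes required.

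Of 49 NF-kB target genes listed, 45 passed the filter on low counts, 24 rose, 2 fell (Plaur and Junb) and 19 did not pass, at a median log2 fold change of 1.92. Plaur and Junb lost their calls when WT replicate 1 or any 1 A20iKO library was left out, Junb also without WT replicate 3 (edgeR Benjamini-Hochberg adjusted p up to 0.116 and 0.14). Ccl22, a chemokine of mature dendritic cells, had 5.3, 6.42 and 5.48 CPM in WT and 252, 196 and 204 in A20iKO (log2 fold change 5.24, SE 0.23, edgeR Benjamini-Hochberg adjusted p = 6.88e-08). Icam1, an adhesion molecule for T cells, had 17.1, 21.5 and 37.6 CPM in WT and 127, 139 and 139 in A20iKO. The libraries of the groups did not overlap for either Ccl22 or Icam1, as the rule that picked them required. Tnf itself did not pass, with 17.5, 2.94 and 18.4 CPM in WT and 17.1, 18.6 and 20.3 in A20iKO (edgeR Benjamini-Hochberg adjusted p = 0.695). Markers of mature dendritic cells, monocytes and other types moved in the same comparison, as given below, and their part in these levels was not tested.

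NF-kB binds kB sites and interferon-activated factors bind the interferon-stimulated response element (ISRE), so promoter sequence was searched for both. RefSeq promoters of build GRCm38.p6, from 250 bases before to 50 after each start, were matched by symbol to 10172 of the 13251 genes tested, and to 595 of the 765 higher and 513 of the 651 lower genes; some genes have several promoters in the table. The files were made with GRCm39, so coordinates below belong to the RefSeq table and not to the counts. The searches were the kB consensus and the ISRE core (GAAA, any 2 bases, GAAA), both on both strands. The kB consensus is close to a palindrome but not a full one, so some sites match on both strands and others on 1 strand only. At least 1 kB match lay in 71 of 752 promoters of genes that rose (9.44%), in 43 of 694 of genes that fell (6.2%), in 4.79% of 11566 promoters of tested genes that did not pass and in 4.51% of all 32851 promoters in the table. For the NF-kB target genes that rose, the share was 12 of 25 (48%), and for mature dendritic cell genes that rose, 4 of 25 (16%). The ISRE core lay in 73 of 752 promoters of genes that rose (9.71%), in 28 of 694 of genes that fell (4.03%), in 2.83% of promoters of tested genes that did not pass and in 3.44% of all promoters. It lay in 2 of 9 promoters of cDC1 markers that fell (22.2%) and in 23 of 49 promoters (46.9%) of the interferon-stimulated genes that rose. The lists were themselves compiled from known targets, so these shares are a description, and a match shows neither binding nor a cause.

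The promoters of 4 genes that moved are printed because they show each motif in a gene whose level is given here. They are Nfkbia (chr12:55492598-55492897, minus strand), Tnip1 (chr11:54962891-54963190, minus strand), Gbp5 (chr3:142496684-142496983, plus strand), an interferon-induced GTPase gene, and Rsad2 (chr12:26456403-26456702, minus strand), an interferon-stimulated antiviral gene. Each is written 5′ to 3′ on the strand of its gene, the first base 250 before the start, with matches in capitals.
Nfkbia: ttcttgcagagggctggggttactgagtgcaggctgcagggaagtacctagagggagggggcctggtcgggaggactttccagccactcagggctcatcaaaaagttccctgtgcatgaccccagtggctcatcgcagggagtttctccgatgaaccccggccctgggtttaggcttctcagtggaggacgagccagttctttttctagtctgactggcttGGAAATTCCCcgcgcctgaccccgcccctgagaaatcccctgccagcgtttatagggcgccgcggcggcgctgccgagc
Tnip1: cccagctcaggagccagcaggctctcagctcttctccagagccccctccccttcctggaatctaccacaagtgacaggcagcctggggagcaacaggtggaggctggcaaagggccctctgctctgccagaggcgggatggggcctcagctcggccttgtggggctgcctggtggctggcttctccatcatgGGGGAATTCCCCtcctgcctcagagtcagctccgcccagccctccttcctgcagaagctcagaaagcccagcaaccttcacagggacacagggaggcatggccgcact
Gbp5: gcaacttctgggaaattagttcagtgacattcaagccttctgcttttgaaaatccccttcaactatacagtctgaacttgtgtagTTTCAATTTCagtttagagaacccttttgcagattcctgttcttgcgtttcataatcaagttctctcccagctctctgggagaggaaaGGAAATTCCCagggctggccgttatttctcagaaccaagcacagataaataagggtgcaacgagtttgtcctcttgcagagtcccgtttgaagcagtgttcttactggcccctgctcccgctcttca
Rsad2: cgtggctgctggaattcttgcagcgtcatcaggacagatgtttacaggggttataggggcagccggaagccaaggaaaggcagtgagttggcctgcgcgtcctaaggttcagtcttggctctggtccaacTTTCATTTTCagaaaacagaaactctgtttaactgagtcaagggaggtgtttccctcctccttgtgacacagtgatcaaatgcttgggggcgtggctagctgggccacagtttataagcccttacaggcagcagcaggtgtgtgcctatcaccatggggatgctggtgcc
In Nfkbia the capitals mark a kB match on the opposite strand, and in Tnip1 they mark kB matches on both strands that overlap one another. In Gbp5 the upstream capitals are an ISRE core and the downstream capitals a kB match, both on the opposite strand. In Rsad2 the capitals are an ISRE core on the opposite strand.

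**Figure D2:**
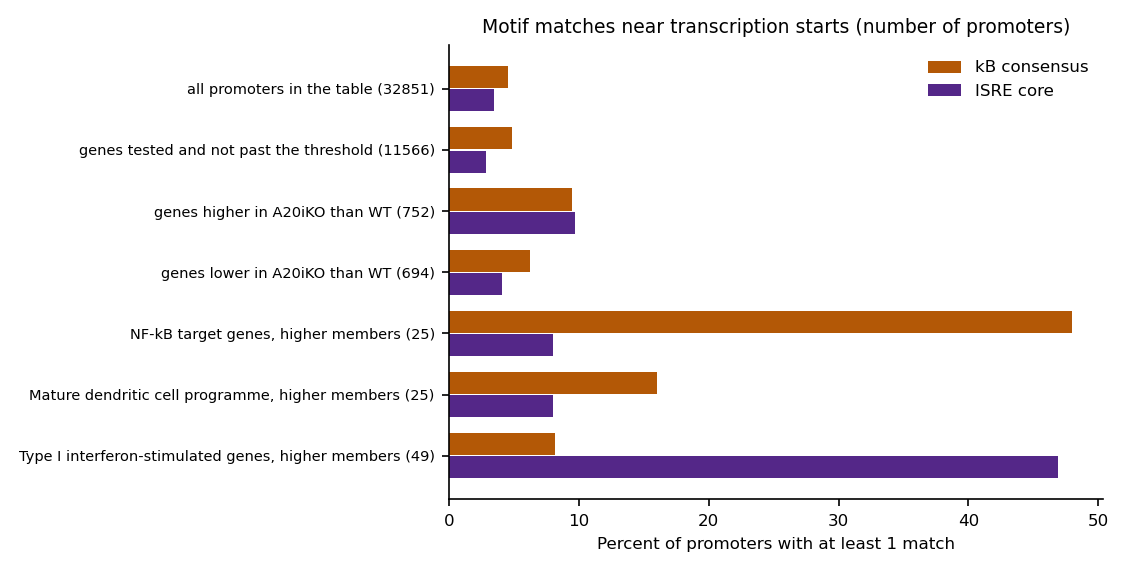
Bars give the percent of promoters with at least 1 match to the kB consensus or the ISRE core, by group of genes, with the number of promoters in brackets. The kB share was 48% among the NF-kB target genes that rose and the ISRE share 46.9% among the interferon-stimulated genes that rose, against 4.79% and 2.83% of promoters of tested genes that did not pass.

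The genes of largest increase were at or near 0 in WT. Fpr2, a formyl peptide receptor that senses bacterial and tissue peptides, had 0.0981, 0.268 and 0.102 CPM in WT and 114, 128 and 122 in A20iKO (log2 fold change 9.56, SE 0.47, edgeR Benjamini-Hochberg adjusted p = 1.3e-07). Acod1, the mitochondrial enzyme that makes itaconate in activated myeloid cells, had no count in WT and 44.8, 39 and 47.5 CPM in A20iKO, at least 402-fold higher against the floor of 3 counts over the group. Mlkl, the pore-forming protein of necroptosis, likewise had no count in WT and 12.4, 7.94 and 10 CPM in A20iKO, at least 91.7-fold higher. The interleukin 1 receptor antagonist gene Il1rn had 0, 0.268 and 0 CPM in WT and 39, 13.3 and 15.1 in A20iKO, a ratio of 296 with a 95% exact counting interval of 81.5 to 2450. The survival genes Bcl2a1a, Bcl2a1b and Bcl2a1d all rose; their sequences are near-identical, so how counts were split between them is uncertain, and Bcl2a1b, with the most counts, had 4.71, 1.47 and 1.02 CPM in WT and 316, 173 and 159 in A20iKO. Tm4sf5, Pglyrp2 and Gem had no count in WT, and Gpr25, Tcf7, Ptpn3 and Susd2 no more than 2 counts there.

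Among the 12 genes of largest decrease were 4 lectins of the CD209 family, Cd209a, Cd209c, Cd209d and Cd209e. Cd209a, the DC-SIGN relative used as a cDC2 marker, had 356, 259 and 379 CPM in WT and 6.31, 11.8 and 14.9 in A20iKO (log2 fold change -4.91, SE 0.3, edgeR Benjamini-Hochberg adjusted p = 5.75e-07). Alox5, 5-lipoxygenase, had 123, 119 and 123 CPM in WT and 4.47, 7.38 and 2.11 in A20iKO (log2 fold change -4.71, SE 0.41, edgeR Benjamini-Hochberg adjusted p = 8.28e-06). Neither gene's groups overlapped, as the rule that picked both genes required. Klk1b11, a kallikrein, had 21.1, 17.8 and 40.1 CPM in WT and no count in A20iKO, at least 233-fold lower, and Cd209e was at least 189-fold lower. F2rl2, a protease-activated receptor, had 49.7, 36.1 and 29.2 CPM in WT and 0.657, 0.113 and 0.211 in A20iKO. The others were Tlr11, Skint3, Card10, Rab39 and Dpep3; the call on Card10 was lost in 9 of the 21 alternatives, with an adjusted p of up to 0.121 (edgeR, Benjamini-Hochberg) without A20iKO replicate 2. Counts of near-identical CD209 and kallikrein genes are uncertain for single members.

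**Figure D3:**
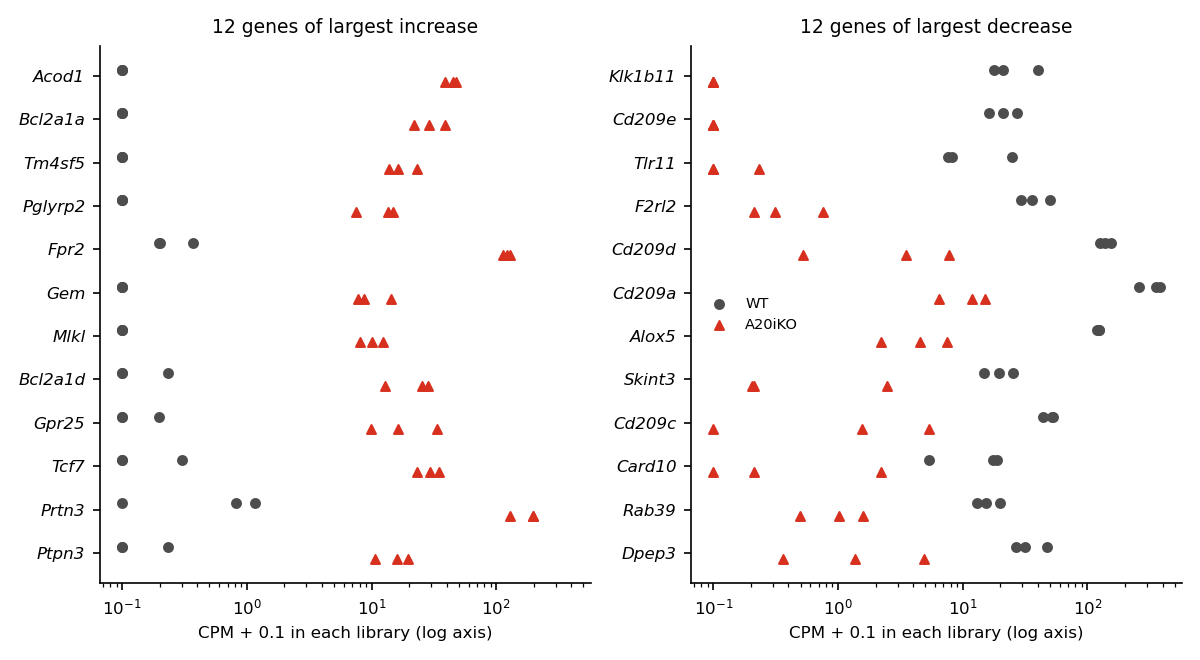
Each point is 1 library, at its level in CPM plus 0.1 on a log axis, for the 12 genes of largest increase (left) and the 12 of largest decrease (right) chosen by rule. WT libraries are grey circles and A20iKO libraries red triangles, and points at the left edge have no count. The rule took only genes whose libraries did not overlap between the groups, so the lack of overlap follows from the choice.

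By abundance, the increases were led by antigen presentation and interferon-linked genes. B2m, the MHC class I light chain, had 2693, 2842 and 2761 CPM in WT and 5142, 6475 and 6594 in A20iKO (log2 fold change 1.13, SE 0.11, edgeR Benjamini-Hochberg adjusted p = 2.84e-05). Plac8, a gene of monocytes and interferon-exposed cells, had 161, 111 and 128 CPM in WT and 975, 1180 and 1244 in A20iKO. Ly6c2, a surface protein of monocytes and plasmacytoid dendritic cells, had 16.4, 37.5 and 24.2 CPM in WT and 670, 874 and 679 in A20iKO. Among the largest falls in CPM, H2-Aa, an MHC class II chain, had 13545, 10100 and 11954 CPM in WT and 4607, 4521 and 4535 in A20iKO (log2 fold change -1.38, SE 0.12, edgeR Benjamini-Hochberg adjusted p = 1.02e-05). Cst3, the protease inhibitor cystatin C, had 5355, 4520 and 5021 CPM in WT and 965, 1184 and 1204 in A20iKO, and Lgals3, galectin-3, had 2321, 1882 and 2355 against 633, 706 and 785. Groups were apart for each of these genes, as the rule that picked them required. Other genes of largest rise in CPM included Nfkbia, Ly6e, Hsp90ab1 and Cybb, and those of largest fall were H2-Ab1, H2-Eb1, Cd74 and the ribosomal protein genes Rps29 and Rps14.

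Of 51 listed genes of mature and migratory dendritic cells, 48 were tested, 28 rose and none fell, at a median log2 fold change of 2.89. Ccr7 had 5.59, 13.5 and 8.02 CPM in WT and 156, 162 and 208 in A20iKO (log2 fold change 4.29, SE 0.32, edgeR Benjamini-Hochberg adjusted p = 2.46e-06). Fscn1, the actin-bundling protein of dendrites, had 19.8, 108 and 46.3 CPM in WT and 625, 428 and 435 in A20iKO, with the WT libraries spread widely. Cd274, which encodes the checkpoint ligand PD-L1, had 10, 17.3 and 7.21 CPM in WT and 147, 130 and 132 in A20iKO. The programme was not complete: Cd83 and Cd86, which are classical activation markers, overlapped between the groups and did not pass (edgeR Benjamini-Hochberg adjusted p = 0.312 and 0.386). Ccl17 had at most 2.95 CPM in any of the 6 libraries and did not pass.

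Among cytokine ligands, 5 of 16 interleukin and interferon genes rose (41 listed) and 1, Il16, fell (median log2 fold change 0.56). Il12b, the shared p40 subunit of IL-12 and IL-23, had 11.7, 16.1 and 11 CPM in WT and 248, 175 and 201 in A20iKO (log2 fold change 4.02, SE 0.26, edgeR Benjamini-Hochberg adjusted p = 9e-07). Il1b had 14.6, 6.55 and 0 CPM in WT and 163, 138 and 157 in A20iKO. The p35 subunit gene Il12a had at most 0.268 CPM in WT and 4.6, 2.61 and 2.84 in A20iKO, and did not pass (edgeR Benjamini-Hochberg adjusted p = 0.145). Of 19 chemokine genes, 6 rose and none fell (median 1.65); Cxcl2, which attracts neutrophils, had 11.2, 8.83 and 1.62 CPM in WT and 115, 100 and 96.7 in A20iKO. Of 31 TNF superfamily genes, 6 rose and 3 fell (median 0.94): Ltb, a lymphotoxin subunit, had 3.24, 1.2 and 1.02 CPM in WT and 32.3, 64.9 and 86.4 in A20iKO, while Tnfsf8 and Tnfsf9, ligands for activated T cells, fell.

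Chemoattractant and cytokine receptor genes went both ways. Of 26 chemoattractant receptor genes, 9 rose and 5 fell (median 0.75). Besides Fpr2 and Ccr7, Cmklr1, the chemerin receptor, had 0.294, 0.134 and 0.102 CPM in WT and 26.7, 30.3 and 45.8 in A20iKO (log2 fold change 7.46, SE 0.79, edgeR Benjamini-Hochberg adjusted p = 4.35e-05). Ltb4r1, the leukotriene B4 receptor, had 71.3, 51.6 and 58.1 CPM in WT and 2.89, 8.96 and 8.22 in A20iKO, and Ccr1 145, 130 and 136 against 19.3, 30.3 and 41.8. Of 39 cytokine and growth factor receptor genes, 11 rose and 9 fell (median 0.54). Csf1r, the receptor for macrophage colony-stimulating factor, had 144, 157 and 138 CPM in WT and 639, 572 and 571 in A20iKO (log2 fold change 2.02, SE 0.14, edgeR Benjamini-Hochberg adjusted p = 1.1e-06). Flt3, the receptor for the cytokine of the culture, fell from 308, 253 and 320 to 128, 160 and 202 CPM, a call lost without WT replicate 3 or A20iKO replicate 2 (edgeR Benjamini-Hochberg adjusted p = 0.0545 and 0.0556). Il12rb2, an IL-12 receptor chain, fell from 50, 29.4 and 40.1 to 6.05, 6.35 and 9.06 CPM.

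Type I interferon-stimulated genes rose in 53 of 73 tested (75 listed) and fell in 3, at a median log2 fold change of 1.85. Rsad2 had 4.12, 6.82 and 7.72 CPM in WT and 62.8, 70.6 and 65 in A20iKO (log2 fold change 3.41, SE 0.22, edgeR Benjamini-Hochberg adjusted p = 9.56e-07). Irf7, the factor that amplifies interferon output, had 6.47, 11.5 and 9.24 CPM in WT and 103, 85 and 132 in A20iKO. Mx1 did not pass, with 31, 13.9 and 26.8 CPM in WT and 27.1, 49 and 29.2 in A20iKO (edgeR Benjamini-Hochberg adjusted p = 0.339), and Ifnb1, which encodes interferon beta, did not pass the filter on low counts. Of 17 guanylate-binding and immunity-related GTPase genes (21 listed), 10 rose and none fell (median 2.77); Gbp5 had 1.47, 0 and 0.203 CPM in WT and 27.5, 40.6 and 45.4 in A20iKO. Of 32 interferon regulatory factor, STAT, JAK and SOCS genes, 6 rose and 4 fell (median 0.17). Jak2, a cytokine receptor kinase, rose from 115, 95.1 and 113 to 249, 303 and 290 CPM, and Irf5, an inflammatory regulatory factor, fell from 543, 309 and 373 to 121, 157 and 143.

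Antigen presentation genes passed in both classes. Of 25 MHC class I genes (27 listed), 9 rose and none fell (median 0.46), among them B2m, H2-K1 and the transactivator Nlrc5, which had 9.42, 7.22 and 6.4 CPM in WT and 31.1, 26.8 and 45.4 in A20iKO. Of 24 class II genes (25 listed), 9 fell and 5 rose (median -0.42); no difference between the classes was tested. The chains H2-Ab1 and H2-Eb1, the invariant chain Cd74 and the peptide loader H2-DMa fell. H2-Ab1 had 9043, 7219 and 9246 CPM in WT and 3585, 3830 and 4013 in A20iKO (log2 fold change -1.16, SE 0.11, edgeR Benjamini-Hochberg adjusted p = 1.8e-05). The transactivator Ciita had 712, 466 and 624 CPM in WT and 438, 449 and 462 in A20iKO; the groups did not overlap, but the difference did not pass (edgeR Benjamini-Hochberg adjusted p = 0.119; 0.0162 without WT replicate 2). H2-Eb2, Ifi30 and the lysosomal protease gene Ctsd rose, Ctsd from 118, 84 and 88.1 to 365, 416 and 352 CPM. Counts of near-identical H2 genes are uncertain for single members.

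Markers of cDC1 that passed were lower in all but 1 case. Of 26 cDC1 markers (30 listed), 12 fell and 1 rose (Ly75), at a median log2 fold change of -1.24. Rab7b, a small GTPase of endosomal transport, had 219, 173 and 180 CPM in WT and 54.4, 60.1 and 52.6 in A20iKO (log2 fold change -1.77, SE 0.16, edgeR Benjamini-Hochberg adjusted p = 1.18e-05), and Clec9a, a receptor for dead cells, had 26.2, 17 and 16.9 against 2.89, 1.93 and 1.05. Id2, a transcriptional regulator needed by cDC1, fell from 859, 896 and 792 to 245, 284 and 276 CPM. Batf3 did not pass, with 16.9, 17 and 17.1 CPM in WT and 19.3, 7.6 and 21.7 in A20iKO. Xcr1, the chemokine receptor that marks cDC1, had 13.8, 5.89 and 6.2 CPM in WT and 0, 0.454 and 3.16 in A20iKO, and did not pass (edgeR Benjamini-Hochberg adjusted p = 0.125; 0.0181 without A20iKO replicate 3). Irf8 had 918, 735 and 767 CPM in WT and 429, 630 and 618 in A20iKO; every A20iKO library lay below every WT library, and the adjusted p of 0.0645 by edgeR with Benjamini-Hochberg adjustment missed the threshold. Irf8 passed in 6 of the 21 alternatives, DESeq2 among them (Benjamini-Hochberg adjusted p = 0.0105), and in none that left a library out.

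cDC2 markers went both ways, with 12 of 35 higher and 10 lower (median 0.53). Sirpa, a surface receptor often used to define cDC2, had 149, 145 and 216 CPM in WT and 476, 418 and 473 in A20iKO (log2 fold change 1.42, SE 0.17, edgeR Benjamini-Hochberg adjusted p = 0.000112). Clec10a, a C-type lectin, had 580, 368 and 599 CPM in WT and 95.4, 111 and 104 in A20iKO. Itgam, which encodes CD11b, fell from 267, 164 and 285 to 132, 120 and 138 CPM, a call lost without WT replicate 3 or A20iKO replicate 2 (edgeR Benjamini-Hochberg adjusted p = 0.0658 and 0.063). Of 32 C-type lectin and Siglec genes (42 listed), 9 rose and 10 fell (median 0.34); the receptors that signal on fungal and mycobacterial ligands were among those that rose, with Clec7a (Dectin-1) at 17.6, 20.2 and 9.95 CPM in WT and 114, 162 and 154 in A20iKO, and Clec4n (Dectin-2) at 25, 32.1 and 41.8 against 183, 232 and 240.

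Of 56 transcription factor genes of dendritic and related cells (59 listed), 12 rose and 15 fell (median 0.17). Irf4 had 204, 127 and 142 CPM in WT and 45.7, 75.1 and 55.1 in A20iKO (log2 fold change -1.43, SE 0.25, edgeR Benjamini-Hochberg adjusted p = 0.00207). Klf4 had 642, 511 and 604 CPM in WT and 220, 222 and 239 in A20iKO, and Notch2 255, 249 and 254 against 119, 124 and 167. These cDC2 regulators and Rbpj, the nuclear effector of Notch, all fell, as did Zbtb46, a factor of the conventional dendritic lineage, from 113, 114 and 125 to 65.6, 62.4 and 71.4 CPM. Mitf, a regulator of lysosome genes, and Tcf4, the plasmacytoid dendritic cell factor, rose, Tcf4 from 366, 298 and 271 to 500, 547 and 541 CPM. Zeb2 did not pass, with a log2 fold change of 0.05.

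Genes of eicosanoid synthesis and response fell in 7 of 20 tested (25 listed) and rose in 2, while the median over the list was above 0, at 0.49. Alox5ap, the partner of 5-lipoxygenase, had 850, 684 and 851 CPM in WT and 301, 336 and 398 in A20iKO (log2 fold change -1.21, SE 0.14, edgeR Benjamini-Hochberg adjusted p = 0.000128), and Hpgds, a prostaglandin D synthase, had 280, 238 and 278 against 63.2, 61.3 and 81.7. Hpgd, which inactivates prostaglandins, had 233, 135 and 190 CPM in WT and 15.4, 22.5 and 21.4 in A20iKO. With Alox5 and Ltb4r1, the enzyme, its partner and a leukotriene receptor thus all had lower transcript levels. Pla2g7, which hydrolyses platelet-activating factor, rose from 0.0981, 4.01 and 2.03 to 101, 149 and 146 CPM.

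Immediate-early and stress genes fell in 14 of 44 tested (45 listed) and rose in 2, at a median log2 fold change of -0.59. Fos, an AP-1 subunit, had 842, 455 and 578 CPM in WT and 153, 205 and 222 in A20iKO (log2 fold change -1.69, SE 0.22, edgeR Benjamini-Hochberg adjusted p = 0.000272). Ier2 had 195, 148 and 171 CPM in WT and 41.4, 48.2 and 57.6 in A20iKO. Zfp36, which speeds decay of cytokine transcripts, had 955, 627 and 792 CPM in WT and 291, 318 and 367 in A20iKO. Gadd45b, a stress gene that is also an NF-kB target, rose from 2.06, 3.21 and 0.406 to 51.1, 36.3 and 45.9 CPM.

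Proliferation genes rose in 31 of 56 tested and fell in 1, at a median log2 fold change of 1.04. The gene that fell was Kif23, whose call was lost without WT replicate 1 or 3 or A20iKO replicate 1 (edgeR Benjamini-Hochberg adjusted p = 0.0579, 0.0522 and 0.0645). Top2a, the topoisomerase of dividing cells, had 404, 502 and 417 CPM in WT and 861, 976 and 889 in A20iKO (log2 fold change 1.04, SE 0.15, edgeR Benjamini-Hochberg adjusted p = 0.000563). Birc5, a mitotic survival protein, had 63.5, 73.6 and 79.2 CPM in WT and 242, 229 and 238 in A20iKO. Cytosolic ribosomal protein genes fell in 29 of 74 and rose in none (median -0.39), and in 19 and 18 without WT replicate 3 and without A20iKO replicate 2; their summed share of counts was 8.64% ± 0.399 in WT and 6.53% ± 0.176 in A20iKO (SD, n = 3 libraries, exact permutation p = 0.1, the smallest possible). Gm26917 took more of the counts in A20iKO, as given above. Outside Gm26917 the ribosomal share still differed by -1.81 percentage points. Few metabolic genes passed, where 5.77% of all genes tested rose and 4.91% fell. Of 65 nuclear-encoded oxidative phosphorylation genes 1 rose and 1 fell (1.54% each), and of 35 cholesterol genes 1 rose and 1 fell (2.86% each). Of 32 glycolysis and HIF genes 3 fell (9.38%), and of 23 unfolded protein response genes 3 fell (13%).

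**Figure D4:**
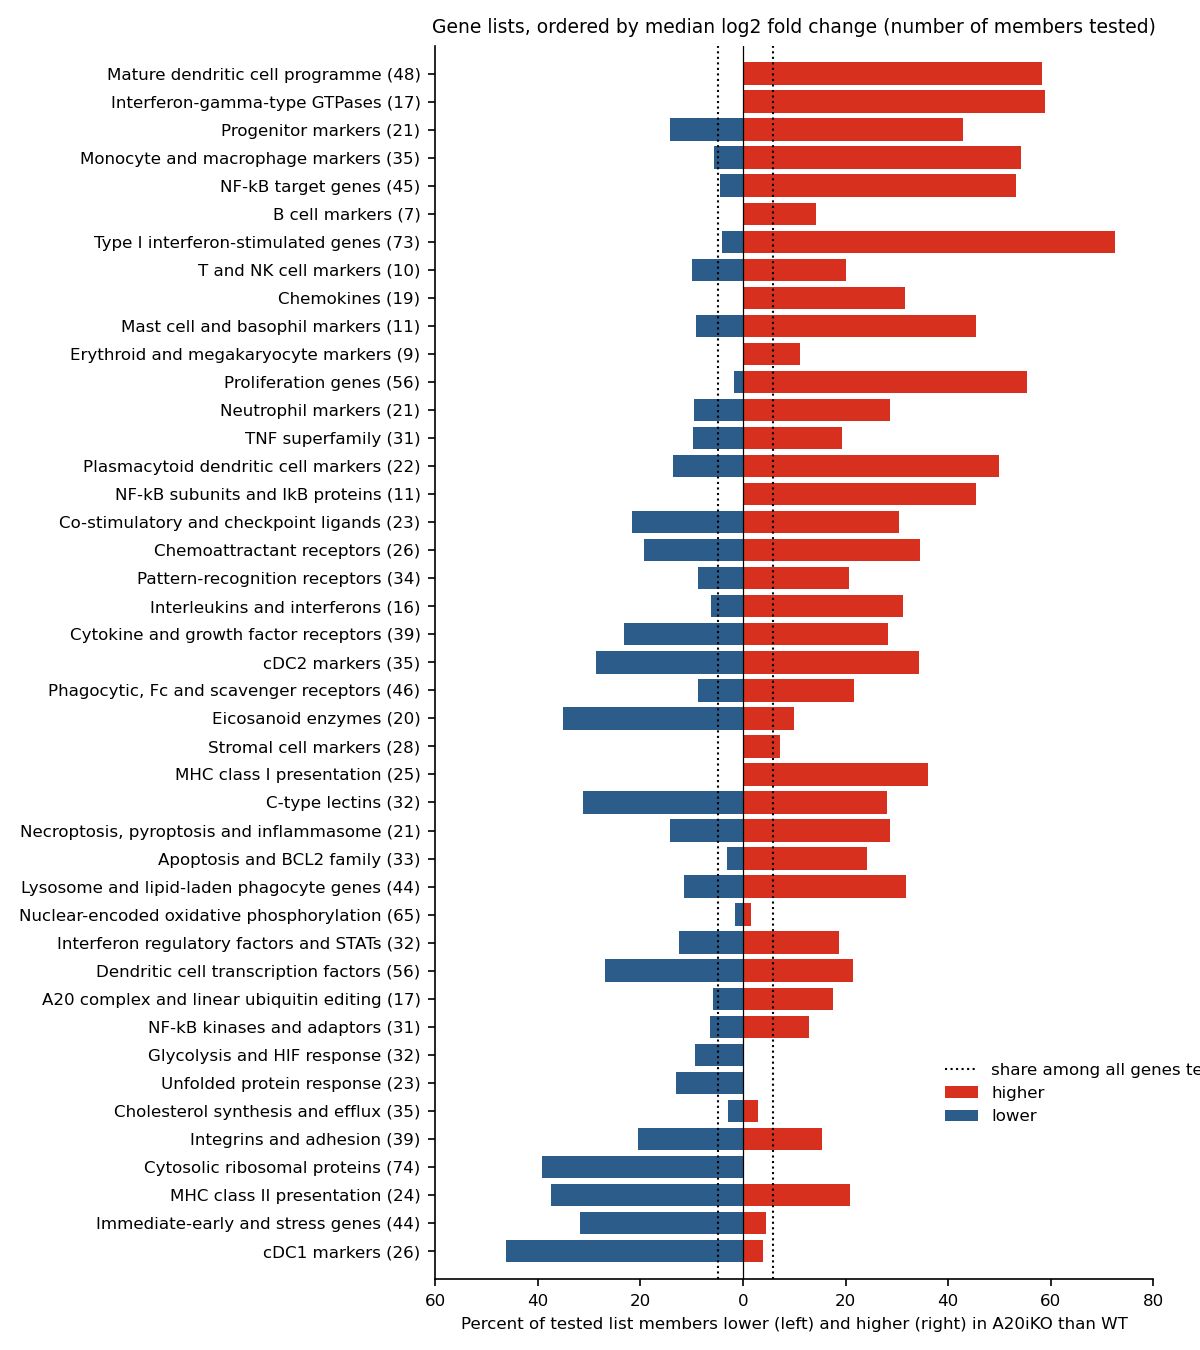
Bars give the percent of tested members of each gene list that were higher (right) or lower (left) in A20iKO than WT, with lists ordered by median log2 fold change and the number tested in brackets. Dotted lines mark the shares over all genes, 5.77% higher and 4.91% lower; the type I interferon list extends furthest to the right and the cDC1 list furthest to the left.

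Receptors for uptake and adhesion went both ways. Of 46 phagocytic, Fc and scavenger receptor genes (52 listed), 10 rose and 4 fell (median 0.51); Fcgrt, the neonatal Fc receptor, had 198, 206 and 237 CPM in WT and 28, 35.2 and 51.9 in A20iKO (log2 fold change -2.48, SE 0.23, edgeR Benjamini-Hochberg adjusted p = 1.3e-05), whereas Msr1, a scavenger receptor, rose from 1.57, 4.28 and 4.27 to 33.1, 27.3 and 34.5 CPM. Of 39 integrin and adhesion genes (44 listed), 6 rose and 8 fell (median -0.32); Itgb7, a gut-homing integrin chain, fell from 636, 537 and 702 to 210, 232 and 217 CPM. Of 23 co-stimulatory and checkpoint genes (31 listed), 7 rose and 5 fell (median 0.77), with Slamf7, an activating receptor of the SLAM family, falling from 536, 412 and 460 to 188, 202 and 223 CPM. Each of these genes had no overlap between groups, as the rule that picked them required.

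Most sensor and cell death genes did not pass, but larger shares of them rose than the 5.77% of all genes tested. The shares that rose were 20.6% of pattern-recognition, 24.2% of apoptosis and 28.6% of necroptosis, pyroptosis and inflammasome genes. The shares that fell were 8.82%, 3.03% and 14.3%, against 4.91% of all genes tested. Of 34 pattern-recognition receptor genes (36 listed), 7 rose and 3 fell (median 0.62); Rigi, the cytosolic RNA sensor, had 13.7, 17.4 and 12.8 CPM in WT and 58.6, 65 and 60.5 in A20iKO, and the DNA-sensing adaptor gene Sting1 had 104, 84.5 and 102 against 162, 189 and 202. Of 33 apoptosis genes (36 listed), 8 rose and 1 fell (median 0.3); Cflar, which blocks caspase-8, rose from 45.2, 42.7 and 41.5 to 90.6, 88.9 and 99.1 CPM. Of 21 necroptosis, pyroptosis and inflammasome genes (23 listed), 6 rose and 3 fell (median 0.3); Ninj1, which drives rupture of dying cells, had 11.4, 15.4 and 16.4 CPM in WT and 65.7, 76.9 and 73.7 in A20iKO (log2 fold change 2.33, SE 0.31, edgeR Benjamini-Hochberg adjusted p = 0.000272). Of 44 lysosome and lipid-laden phagocyte genes (48 listed), 14 rose and 5 fell (median 0.3); Lpl, lipoprotein lipase, rose from 28.2, 22.1 and 27.1 to 176, 193 and 243 CPM.

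Markers of other cell types moved with the groups. Of 35 monocyte and macrophage markers (40 listed), 19 rose and 2 fell (median 1.97), and their share of counts was 0.221 to 0.27% in WT and 0.551 to 0.57% in A20iKO. Apoe, a lipid carrier, had 40.6, 37.3 and 56.5 CPM in WT and 221, 180 and 222 in A20iKO, while Adgre1, a macrophage surface marker, fell from 110, 59.4 and 108 to 37.7, 39.5 and 34.1 CPM. Mertk, a receptor for dying cells, had 0.589, 0.535 and 0.203 CPM in WT and 23.5, 18.3 and 25 in A20iKO, and the complement genes C1qa and C1qb rose. Of 22 plasmacytoid dendritic cell markers, 11 rose and 3 fell, including Siglech, from 273, 214 and 237 to 52.3, 78.3 and 58.3 CPM. The share of the plasmacytoid list was 0.201 to 0.207% in WT and 0.33 to 0.43% in A20iKO. That list holds Ly6c2 and Cybb, which were among the genes of largest rise in CPM. Ly6c2 is also in the monocyte and macrophage list, so the shares of these lists are not separate signs of different cells.

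Granulocyte and progenitor markers passed in part, in both directions. Of 21 neutrophil markers (29 listed), 6 rose and 2 fell; Prtn3, a protease of myeloid precursors, had 0, 1.07 and 0.711 CPM in WT and 129, 197 and 197 in A20iKO (log2 fold change 8.26, SE 0.64, edgeR Benjamini-Hochberg adjusted p = 3.51e-06). Besides Prtn3, the neutrophil markers that rose were Mmp8, Ctsg, Csf3r, Mpo and Ms4a3, and those that fell were S100a8 and S100a9. S100a9, which forms calprotectin with S100a8, had 47.7, 48 and 47.8 CPM in WT and 3.94, 4.09 and 6.53 in A20iKO. The listed neutrophil genes Ly6g, Fcnb and Cebpe had no count in any of the 6 libraries. The neutrophil list summed to 0.0118 to 0.0166% of counts in WT and 0.0416 to 0.0492% in A20iKO. Of 21 progenitor markers (25 listed), 9 rose and 3 fell; Sox4 rose from 22.1, 56.7 and 22.7 to 190, 226 and 178 CPM and Kit, the stem cell factor receptor, from 23.8, 23.9 and 21.5 to 62.2, 85.7 and 65. Of 11 mast cell and basophil markers (25 listed), 5 rose (Mcpt8, Cpa3, Kit, Prss34 and Prg2) and 1 fell (Il1rl1). The share of this list was 0.0089 to 0.0124% in WT and 0.03 to 0.0312% in A20iKO. Its members Mcpt1, Mcpt2, Il13 and Ear6 had no count in any of the 6 libraries. Lists of B cell (7 tested), T and NK cell (10), erythroid (9) and stromal markers (28) had 1, 2, 1 and 2 members higher. The members lower numbered 0, 1, 0 and 0. Those higher were Pax5 (B cell), Tcf7 and Il7r (T and NK cell), Car2 (erythroid), and Kdr and Runx2 (stromal). Klrk1 (T and NK cell) was lower. Among the B, T and NK cell markers, Cd79a, Rag1, Rag2, Klrb1c, Ncr1 and Eomes had no count in any of the 6 libraries. The part of these cells or programmes in the other results was not tested.

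The IFNa libraries give a second reference grown from WT marrow. Against IFNa, 271 genes were higher in A20iKO (2.05%) and 452 lower (3.41%) of 13251; leaving out single libraries moved these counts to between 145 and 352 and between 227 and 523. Of the 765 genes higher than WT, 198 were also higher than IFNa, 49 were lower and 518 did not pass. Of the 651 genes lower than WT, 314 were also lower than IFNa, 1 was higher and 336 did not pass. Of 56 proliferation genes, 2 were higher and 3 lower than IFNa, and of 74 ribosomal protein genes 1 was lower. Genes that did not pass are not shown to be equal. Of the 73 interferon-stimulated genes tested, 2 were higher in A20iKO than IFNa and 39 lower, at a median log2 fold change of -1.16. Rsad2 stood at 308 ± 13.2 CPM with IFNa (SD, n = 3 libraries), above the 62.8 to 70.6 CPM of A20iKO (log2 fold change -2.22 for A20iKO over IFNa, edgeR Benjamini-Hochberg adjusted p = 2.9e-05). NF-kB target genes were higher in 17 of 45 and lower in none, with Nfkbia at 647 ± 22.2 CPM with IFNa (log2 fold change 2.06 for A20iKO over IFNa, edgeR Benjamini-Hochberg adjusted p = 1.49e-06). Plac8 and Ly6c2 did not pass against IFNa, at 1350 ± 175 and 679 ± 103 CPM with IFNa. S100a8 and S100a9 were 121 ± 8.54 and 157 ± 18.5 CPM with IFNa, and A20iKO was lower than either group by edgeR. Klk1b11 (68 ± 13.9 CPM) also had its highest group mean with IFNa. The comparisons with WT and with IFNa share the A20iKO libraries, so they are not separate evidence on A20iKO.

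**Figure D5:**
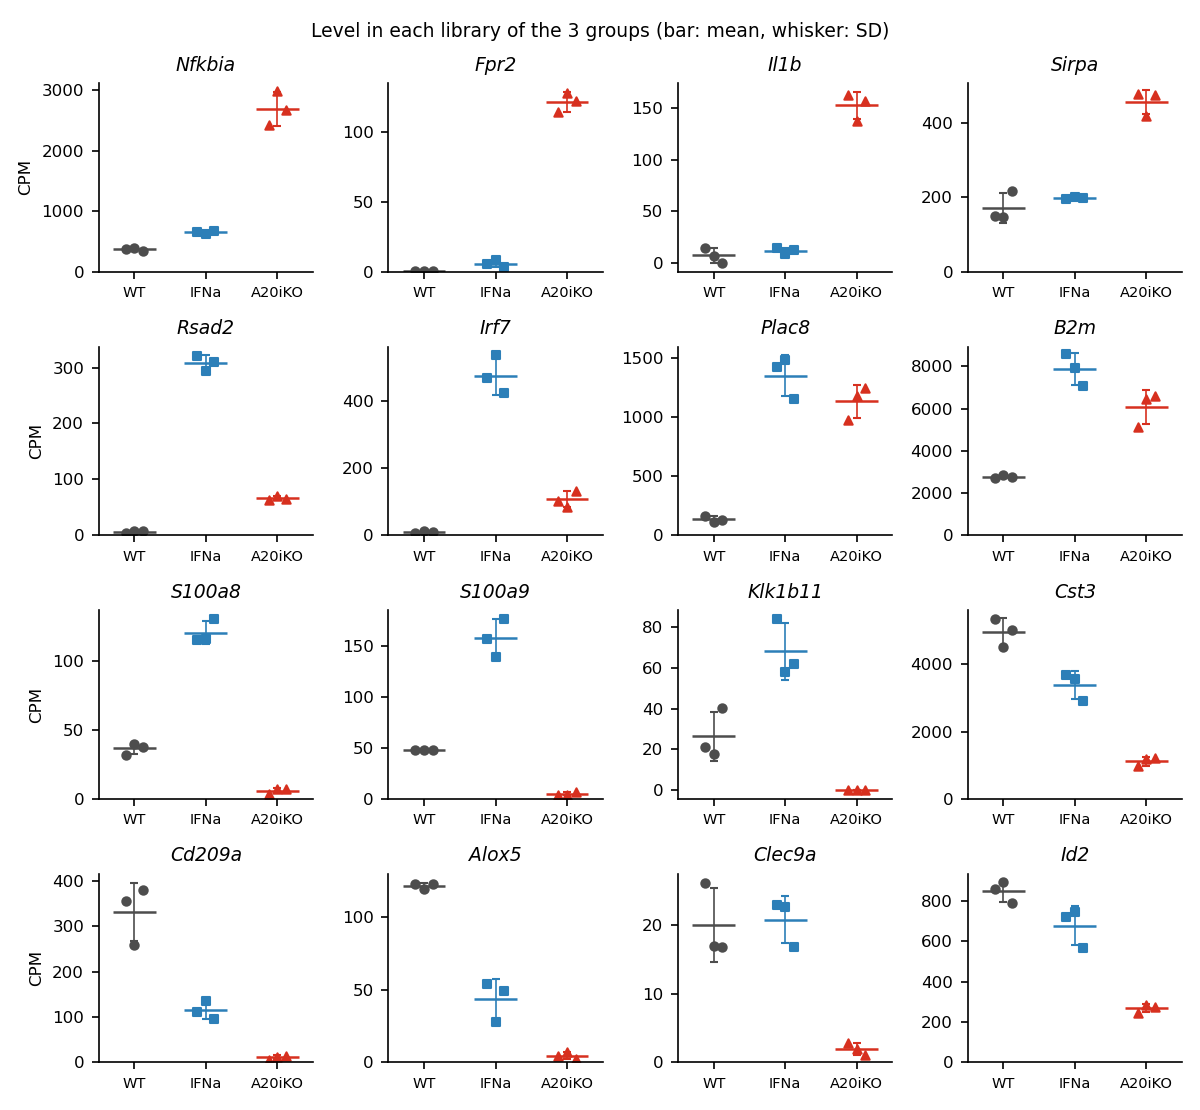
Each point is 1 library of WT (grey circles), IFNa (blue squares) or A20iKO (red triangles), in CPM on a linear axis, with horizontal bars at the group mean and whiskers of 1 SD. Rsad2 and Irf7 are highest with IFNa, Nfkbia, Fpr2, Il1b and Sirpa are highest in A20iKO, and S100a8, S100a9 and Klk1b11 are highest with IFNa and lowest in A20iKO.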

How the data were processed

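Expression was measured in 9 libraries made with a 3' tag kit (QuantSeq, forward), 3 per group; the deposited values are whole-number read counts per gene symbol, 1 file per library, with no normalization. Named per the submitters' processing notes are featureCounts 2.0.6, STAR 2.7.10b, Bowtie2, fastp 0.23.1 and the mouse build GRCm39. Not given in the sources used here are what each tool did, the annotation, strandedness and how multi-gene reads were counted. Overlapping, antisense and near-identical genes are therefore uncertain.

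Genes were kept with filterByExpr (minimum count 10, minimum total 15), which left 13251 genes and 99.83% of counts. edgeR 4.0.16 in R 4.3.3 fitted 1 quasi-likelihood model to all 9 libraries with TMM factors (6 residual degrees of freedom, common biological coefficient of variation 0.554), with Benjamini-Hochberg adjustment over all genes and a threshold of 0.05. Standard errors were derived from the F statistic. CPM is the count over the library total times its TMM factor; shares of counts use the plain total. Where a group had no count, the fold is a bound against 3 counts over the group, and with 1 to 3 counts it is a ratio with a 95% exact interval; both cover counting error only, since no molecular identifiers are named. Library pairs within a group differed by a chi-square per degree of freedom of 14.4 to 64.2, far beyond sampling noise, so each was counted as 1 replicate. The script was tested on simulated data.

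Named genes were taken by rule among genes past the threshold, with no overlap between groups and at least 10 CPM in the higher group: the 12 of largest log2 increase and the 12 of largest decrease, the 8 of largest rise and of largest fall in CPM, the 8 in each direction that also passed against IFNa, up to 4 members of each list with the smallest p, and a fixed set that includes Tnfaip3, Irf8 and Ccr7. Predicted genes, Xist, Y-linked genes and antigen receptor segments were left out, and some genes the rule picked are not reported here. Other genes in the text were chosen with their values known, for their role in a list. The comparison, the members and the gene lists were chosen with earlier results of these data known. Lists share members and were not tested as sets. Alternatives were other scaling factors, other filters, DESeq2 1.42.0, limma-voom (limma 3.58.1), a fit of the 6 libraries, a replicate block, a stromal covariate, leaving out Gm26917 and leaving out each library; leaving out the 2 libraries of most stromal transcripts was added after seeing the data. No genome of the files' build was used.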

Additional observations from a re-analysis of the deposited data

How the results depend on the processing

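Among the genes named, 126 that passed the threshold were followed through the 21 alternatives. Of these, 119 passed it in each alternative in which they could be tested, 7 lost the call in at least 1, and none changed sign. Many were picked from these same data for a call and no overlap, so this share does not stand for all calls. Of all 1416 calls, 898 remained without A20iKO replicate 2, 923 without A20iKO replicate 3, 961 without WT replicate 3 and 1416 with the stromal covariate. The number of genes higher in A20iKO than WT ran from 478 to 750 with single libraries left out, and the number lower from 439 to 683. With the stromal covariate 1006 genes were lower than WT. Against IFNa, the number higher was 430 with no filter beyond 1 count, 497 with DESeq2, 469 in the fit of 6 libraries and 470 with the stromal covariate, and the number lower was 796 with that covariate; leaving out single libraries gave 145 to 352 higher and 227 to 523 lower. Ribosomal protein genes that fell numbered 18 to 29 with single libraries left out. The cause of these shifts was not tested. Without WT replicate 2 and A20iKO replicate 1, the libraries of most stromal transcripts, 629 genes were higher and 609 lower than WT. The share of mitochondrial genes differed by -0.211 percentage points (A20iKO minus WT) of all counts and by 0.036 outside Gm26917.

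Replicate numbers are shared by the groups, but same-numbered WT and A20iKO libraries did not deviate together (correlations of -0.274, -0.143 and 0.067). The highest correlation, 0.35, was between WT replicate 2 and A20iKO replicate 1, the libraries of most stromal transcripts. Such differences can hide a pairing, so the check does not settle whether the numbers pair the libraries. The main fit did not pair them. A replicate block gave 589 genes higher and 486 lower than WT, and kept 1060 of the 1416 calls of the main fit. Among the 126 named genes followed, only the call on Plaur was lost with it (edgeR Benjamini-Hochberg adjusted p = 0.0726). Genes not past the threshold changed sign in some fits. With single libraries left out, the log2 fold change ran from -0.342 to 0.269 for Batf3, from -0.268 to 0.109 for Nfkb1 and from -0.072 to 0.159 for Zeb2, and for Zeb2 it was -0.056 without both libraries of most stromal transcripts. With 3 libraries a group, small changes and genes of low count can be missed.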
